A study of Caenorhabditis elegans with 2 samples.

Results

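The genes described here are the nhr genes of Caenorhabditis elegans, which encode nuclear hormone receptors, and the measurement is where the chromatin protein PBRM-1 was found at their promoters. Members were the nuclear protein-coding genes whose symbol is nhr followed by a number in the Ensembl annotation of WBcel235, the assembly called ce11 in the deposited files. There were 269 such genes among 19973 protein-coding genes, on all 6 chromosomes. PBRM-1 was mapped by chromatin immunoprecipitation and sequencing (ChIP-seq), in which crosslinked chromatin is sheared, precipitated with an antibody and sequenced. All samples were whole young adults of strain RW12226, aged 64.5 h and synchronised by starving newly hatched L1 larvae after bleaching, whose endogenous pbrm-1 gene carries tags (TY1, EGFP, 3xFLAG), and the antibody was against GFP. The 2 biological replicates formed 1 group, so the data hold no contrast between conditions. Every animal carried the tag, and the control experiment named in the labels was not used here. The files are peak lists with no read counts, so the depth of each sample is unknown. In whole animals, a site bound in a few cells cannot be told apart from a site bound weakly in many.

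PBRM-1 is the polybromo subunit of PBAF, a form of the SWI/SNF complex that moves nucleosomes with energy from ATP, and its bromodomains bind acetylated histones. Nuclear hormone receptors are transcription factors with a zinc-finger DNA-binding domain and, in most of them, a domain that can bind a small lipophilic ligand such as a steroid or a fatty acid. In C. elegans the family is greatly expanded, mostly from an ancestor like the vertebrate receptor HNF4, and its members with known roles act in fat metabolism, moulting, development and the response to foreign compounds.

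The summits that carried most of the results lay either between a receptor gene and a neighbour pointing away from it or next to a tRNA gene, and the sequences below show these places. A summit is the position of highest signal in a peak. Each stretch is 300 bases of the WBcel235 assembly, read from RefSeq's copy on the plus strand with the summit in the middle. The first set is shown because each summit lies between divergent genes. Capitals mark annotated protein-coding gene sequence. They are the start of nhr-47 in the first stretch (chrV:5505088-5505387), the start of F44E7.9 in the stretch beside nhr-142 (chrV:5790952-5791251), and the start of H12C20.7, which reads leftwards, in the stretch beside nhr-68 (chrV:11572891-11573190).
nhr-47: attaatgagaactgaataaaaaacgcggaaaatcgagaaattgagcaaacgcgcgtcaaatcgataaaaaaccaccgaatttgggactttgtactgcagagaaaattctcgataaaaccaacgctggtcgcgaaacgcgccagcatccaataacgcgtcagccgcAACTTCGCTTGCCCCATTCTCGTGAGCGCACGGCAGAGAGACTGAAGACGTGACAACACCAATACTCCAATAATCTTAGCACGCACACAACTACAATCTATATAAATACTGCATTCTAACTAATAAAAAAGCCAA
nhr-142: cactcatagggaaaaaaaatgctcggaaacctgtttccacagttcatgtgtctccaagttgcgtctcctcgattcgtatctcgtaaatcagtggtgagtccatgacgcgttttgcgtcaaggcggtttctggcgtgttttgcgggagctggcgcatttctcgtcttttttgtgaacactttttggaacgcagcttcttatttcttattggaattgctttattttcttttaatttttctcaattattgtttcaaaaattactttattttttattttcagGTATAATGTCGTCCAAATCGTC
nhr-68: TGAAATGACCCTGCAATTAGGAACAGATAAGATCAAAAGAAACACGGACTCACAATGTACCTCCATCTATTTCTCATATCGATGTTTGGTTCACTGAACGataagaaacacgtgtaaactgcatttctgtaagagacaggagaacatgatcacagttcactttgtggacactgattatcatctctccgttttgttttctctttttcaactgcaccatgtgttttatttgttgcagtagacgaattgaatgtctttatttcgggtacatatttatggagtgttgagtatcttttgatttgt
The next set is shown because a tRNA gene, in capitals, lies under or beside the summit. The positions are chrX:15741880-15742179 for nhr-255, chrV:16341681-16341980 for nhr-193 and chrIV:1388095-1388394 for nhr-41. The summit of nhr-41 lies in an intron of that gene.
nhr-255: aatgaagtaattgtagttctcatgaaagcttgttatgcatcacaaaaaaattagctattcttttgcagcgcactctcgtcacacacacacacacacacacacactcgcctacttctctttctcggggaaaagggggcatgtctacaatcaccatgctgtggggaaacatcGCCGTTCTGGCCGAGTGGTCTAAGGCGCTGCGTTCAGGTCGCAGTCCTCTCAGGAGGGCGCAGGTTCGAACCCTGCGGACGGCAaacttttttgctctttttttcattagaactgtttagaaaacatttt
nhr-193: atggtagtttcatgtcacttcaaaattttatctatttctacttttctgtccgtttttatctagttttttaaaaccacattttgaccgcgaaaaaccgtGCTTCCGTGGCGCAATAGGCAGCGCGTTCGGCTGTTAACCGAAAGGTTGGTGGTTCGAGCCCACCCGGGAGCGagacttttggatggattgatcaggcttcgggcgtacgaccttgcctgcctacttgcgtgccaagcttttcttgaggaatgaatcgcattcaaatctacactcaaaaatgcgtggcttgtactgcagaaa
nhr-41: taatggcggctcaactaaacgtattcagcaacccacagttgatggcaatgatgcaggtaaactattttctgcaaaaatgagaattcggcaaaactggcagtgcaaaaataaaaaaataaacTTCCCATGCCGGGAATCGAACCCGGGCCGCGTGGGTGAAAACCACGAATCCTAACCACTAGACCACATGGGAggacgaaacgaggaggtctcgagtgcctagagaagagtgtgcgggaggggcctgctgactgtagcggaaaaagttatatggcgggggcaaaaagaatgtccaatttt
The last stretch, upstream of nhr-141 (chrV:7443540-7443839), is shown because it holds the longest repeat among the receptor summits and has no capitals.
nhr-141: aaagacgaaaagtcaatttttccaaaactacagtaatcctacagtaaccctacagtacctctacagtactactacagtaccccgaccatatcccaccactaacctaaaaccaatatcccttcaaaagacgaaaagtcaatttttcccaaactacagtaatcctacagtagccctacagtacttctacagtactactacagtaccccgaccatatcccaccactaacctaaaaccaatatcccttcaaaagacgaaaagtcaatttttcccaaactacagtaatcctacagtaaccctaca

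PBRM-1 summits were found in few receptor promoters. A promoter window ran from 1000 bp upstream to 200 bp downstream of any annotated transcript 5′ end of a gene. In the series list, which the authors thresholded from both replicates and which holds 3243 peaks, 12 of 269 nhr genes had a summit in the window. That is 4.46% of nhr genes, against 9.87% of all protein-coding genes. The 12 genes were nhr-47, nhr-255, nhr-142, nhr-68, nhr-86, nhr-49, nhr-193, nhr-1, nhr-41, nhr-141, nhr-48 and nhr-35. The other 257 nhr genes had none. No test of the difference was made, since family members share their origin and their neighbourhoods and are not independent samples. The homeobox genes with a ceh symbol had a summit in 5 of 63 windows (7.94%), and the collagen genes with a col symbol in 7 of 156 (4.49%).

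The other thresholded lists also held a smaller share of nhr genes than of all genes. The conservative list of 2917 peaks had a summit at 12 nhr genes (4.46%), against 8.99% of all protein-coding genes, and 11 of these were also in the series list. Replicate 1 alone, with 1370 peaks, had 4 nhr genes (1.49%) against 4.63% of all genes. Replicate 2 alone, with 2173 peaks, had 9 nhr genes (3.35%) against 7.63% of all genes. The 4 genes found by replicate 1, nhr-47, nhr-255, nhr-142 and nhr-86, were also among the 9 of replicate 2. Of all genes, 827 of the 925 found by replicate 1 were also found by replicate 2. Over the 4 lists, 15 of 269 nhr genes had a summit at least once, against 2203 of all 19973 genes. Of the 12 in the series list, nhr-41, nhr-141, nhr-193, nhr-35 and nhr-48 were in neither replicate's own thresholded list, and nhr-48 was also absent from the conservative list. Of all 1971 genes in the series list, 458 were in neither replicate's own list. The receptors outside the series list were nhr-3, in the conservative list alone, and nhr-57 and nhr-64, in replicate 2 alone.

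**Figure D1:**
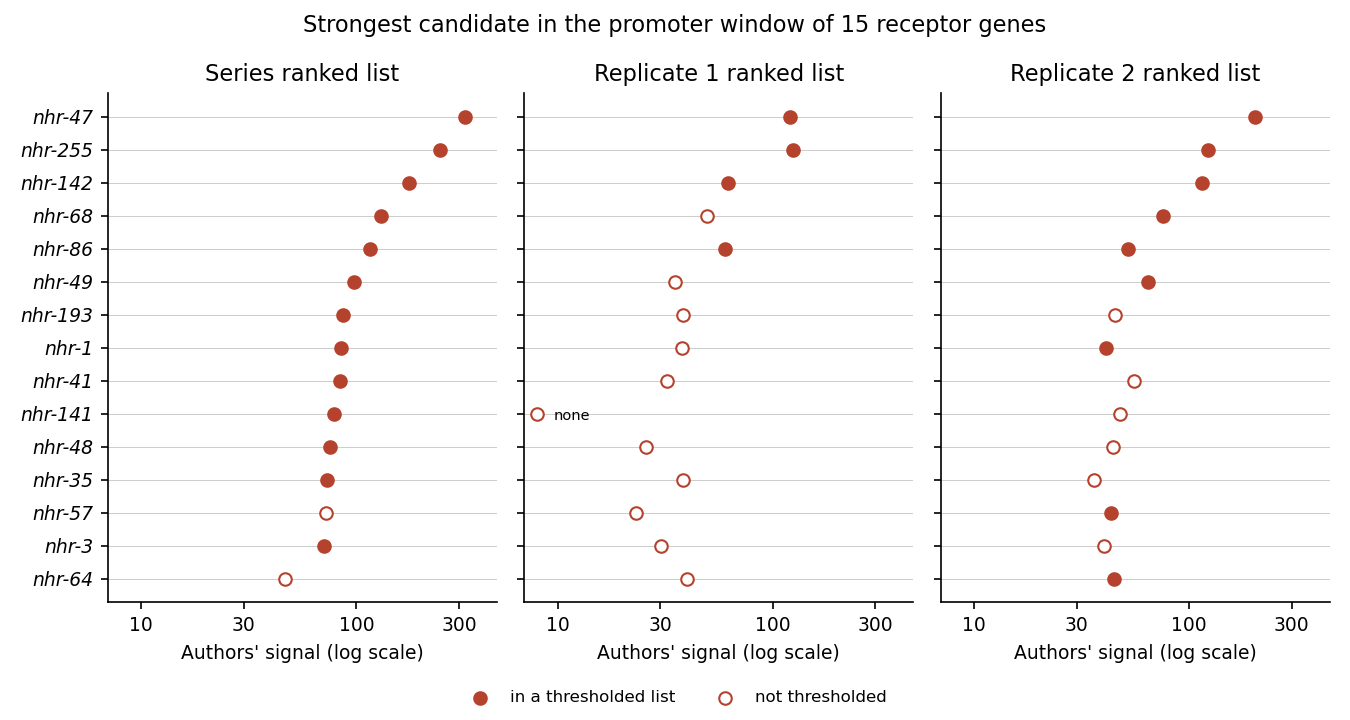
The authors' signal (log axis) of the strongest candidate in the promoter window of each of the 15 receptor genes with a thresholded summit in any list, in the ranked list of the series, of replicate 1 and of replicate 2. Filled points are windows with a summit in a thresholded list of that panel's samples (series or conservative list in the left panel), and open points are windows without one; nhr-47, at 320.2 in the series list, is filled in all 3 panels, and nhr-141 has no candidate in replicate 1.

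Receptors reached through a promoter shared with another gene had 4 of the 5 highest leading signals in the series list, and nhr-255 had the other. Signal is the authors' own strength value for a peak, with a scale not given in the sources used here, so it was compared within a list only. A summit was called shared when it lay in the window of another protein-coding gene too, and own otherwise. By this split 8 of the 12 genes had an own summit, and 4 (nhr-47, nhr-142, nhr-68 and nhr-86) were reached through shared summits alone. In each of the 4 cases the other gene lay on the opposite strand and pointed away, so the assignment to the receptor cannot be told apart from one to its neighbour. The signals of the 4 shared summits had a median of 152.8 and a range of 115.3 to 320.2, and the 9 own summits a median of 84.3 and a range of 12.7 to 245.7. The same order held over all genes, with a median of 113.4 for the 497 summits in windows of several genes and 91.3 for the 1197 in the window of 1 gene. Shared summits were 4 of 13 in nhr windows and 29.3% of the 1694 summits in any promoter window. Replicate 1, with 1370 peaks, had 1 receptor with an own summit and 3 with shared summits alone. Replicate 2, with 2173 peaks, had 5 and 4. Over all promoter summits, 34.7% in replicate 1 and 33.9% in replicate 2 lay in windows of several genes.

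nhr-47 had the strongest summit of the family. Its peak at chrV:5505148-5505322 had a signal of 320.2, rank 147 of 3243 in the series list, and only 0.656% of all protein-coding genes had a ranked candidate as strong. Its signal was 120.5 in the ranked list of replicate 1 and 202.4 in that of replicate 2, and it passed the threshold in both. The summit lay 15 bp upstream of the nhr-47 5′ end, at the capitals of its stretch above, and 381 bp upstream of dnj-19, which encodes a chaperone of the DnaJ family. The 5′ ends of the pair lie 396 bp apart.

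nhr-142 and nhr-68 had their summits closer to the neighbour than to the receptor. The nhr-142 peak (chrV:5790942-5791261) had a signal of 176.1, with 62 in replicate 1 and 114.2 in replicate 2, and passed the threshold in both. Its summit was 549 bp upstream of nhr-142 and 128 bp upstream of F44E7.9. The nhr-68 peak (chrV:11572881-11573200) had a signal of 129.5, with 49.7 in replicate 1 and 75.7 in replicate 2, and passed the threshold in replicate 2 only. NHR-68 is known to switch on, with NHR-10, the shunt that breaks down propionate when vitamin B12 is low. The summit was 399 bp upstream of nhr-68 and 51 bp upstream of H12C20.7. When each summit was given to the nearest 5′ end alone, neither receptor kept it, and 10 nhr genes had a summit.

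nhr-86, which is known to respond to a metabolite of pathogenic bacteria and to toxins, shared its summit with the lipid-binding protein gene lbp-9. The peak (chrV:2067478-2067797) had a signal of 115.3, with 59.7 in replicate 1, rank 866 of 54625 candidates, and 51.8 in replicate 2, rank 1869 of 48976, both past the threshold. The summit lay about midway, 788 bp upstream of nhr-86 and 811 bp upstream of lbp-9. It would fall outside a window of 500 bp upstream of either gene.

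Among receptors with an own summit, nhr-255 stood highest. Its peak (chrX:15741870-15742189) had a signal of 245.7, rank 251 in the series list, with 123.7 in replicate 1, rank 183 of 54625 candidates, and 122.7 in replicate 2, rank 379 of 48976. It was the only own summit past the threshold in both replicates. The summit lay 580 bp upstream of nhr-255 and 20 bp from a tRNA gene, the capitals of its stretch. The other own summits had series signals from 12.7 to 97.6, so none of them came near nhr-255.

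nhr-49, which switches on genes of fatty acid desaturation and breakdown and is needed in fasting, came next. Its peak (chrI:9869140-9869459) had a signal of 97.6, with 35.0 in replicate 1 and 64.1 in replicate 2, past the threshold in replicate 2 only. The summit lay 351 bp upstream of the outermost of its 6 annotated 5′ ends. nhr-49 thus sat close to the median signal of 96.5 over all 1694 promoter summits.

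The other own summits lay on the weaker side of the list. nhr-193 (chrV:16341671-16341990) had a signal of 86.7, with 38.4 in replicate 1 and 45.1 in replicate 2. nhr-1 (chrX:17513597-17513916) had 84.6, with 37.9 in replicate 1 and 40.9 in replicate 2, and of this group it alone passed a replicate's threshold, in replicate 2. nhr-41 (chrIV:1388085-1388404), a relative of the fly receptor DHR78 and of mammalian TR2 and TR4, had 84.3, with 32.2 in replicate 1 and 55.3 in replicate 2. Its summit was assigned through an internal 5′ end, 148 bp downstream of it, and lay in an intron 2030 bp downstream of the outermost 5′ end. nhr-141 (chrV:7443530-7443849) had 78.4, with no candidate in replicate 1 and 47.8 in replicate 2. The summit lay 971 bp upstream, near the edge of the window.

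nhr-48 and nhr-35, both on chromosome X, had the lowest leading signals. nhr-48 (chrX:15707505-15707824), a relative of the steroid receptor gene daf-12, had a signal of 75.8, with 25.8 in replicate 1 and 44.1 in replicate 2. nhr-35 (chrX:4532247-4532566) had 72.7, with 38.4 in replicate 1 and 36.1 in replicate 2. It also had an overlapping peak, with its summit 80 bp upstream of the gene, whose signal was 12.7 and whose q value was above 0.05. In ranks, the leading nhr-48 and nhr-35 peaks stood at 2271 and 2400 of 3243.

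The other receptors passed the threshold in a single list. nhr-57, a gene known to respond to low oxygen, had a signal of 43.3 in the thresholded list of replicate 2 and a candidate of 23.1 in replicate 1. nhr-64 had 44.9 in replicate 2 at a summit 11 bp upstream of its 5′ end, where replicate 1 had no overlapping candidate but had one of 39.9 elsewhere in the window. In the ranked list of the series, the strongest candidate was 72.1 at nhr-57 and 46.5 at nhr-64, and neither passed. nhr-3 had 70.5 in the conservative list, with 30.3 in replicate 1 and 40.3 in replicate 2, and a q value just above 0.05.

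**Figure D2:**
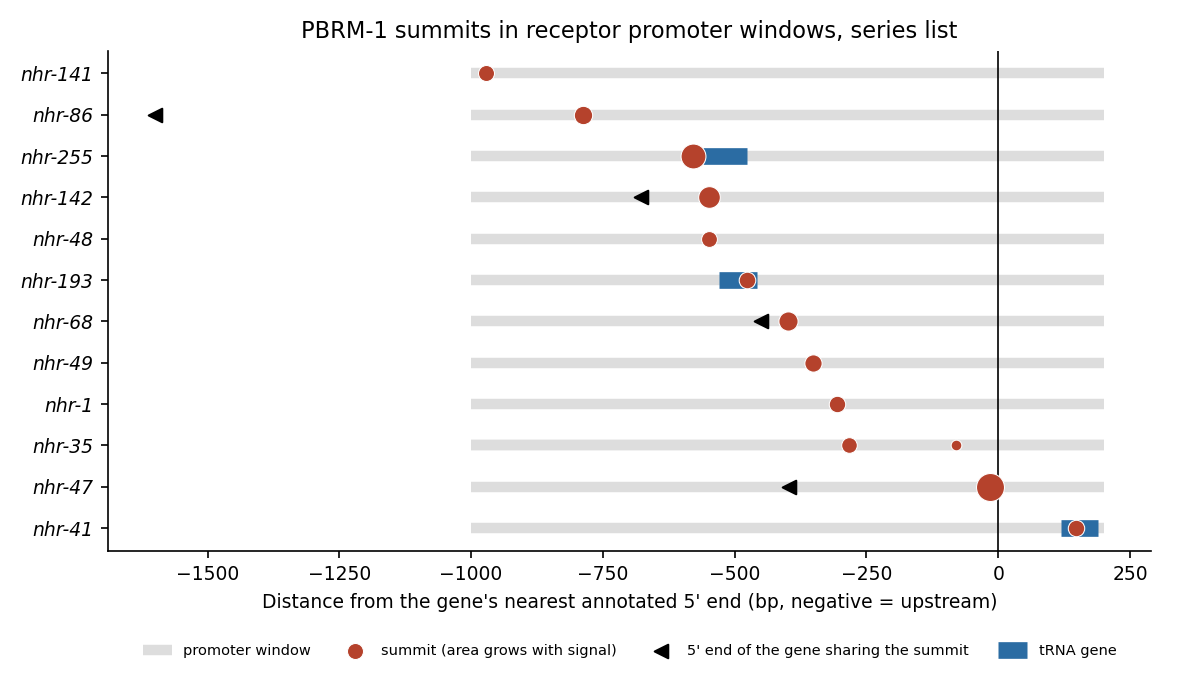
Each row is 1 of the 12 receptor genes with a series summit, and the horizontal axis is the distance in bp from the gene's nearest annotated 5′ end, negative upstream. Red points are summits with area growing with signal, grey bars the promoter window around that 5′ end, blue bars tRNA genes and black triangles the 5′ end of the gene that shares the summit; nhr-47 lies at 15 bp upstream, and the tRNA genes lie at or beside the summits of nhr-255, nhr-193 and nhr-41.

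Receptor summits lay farther from the 5′ end than promoter summits in general. Of the 13 summits, 12 were upstream (92.3%), close to the 90.6% of all pairs of a gene and a summit. The median distance was 399 bp, against 262 bp over all 2221 pairs of a gene and a summit. Only 3 of the 13 (23.1%) lay within 300 bp upstream of the 5′ end, against 46.4% of all pairs. These were the summit of nhr-47 and both summits of nhr-35.

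Some receptor summits lay at tRNA genes. In the series list, 3 of 13 receptor summits (23.1%) lay within 500 bp of a tRNA gene, against 95 of 1694 promoter summits (5.61%). The summits of nhr-193 and nhr-41 were inside a tRNA gene of 73 bp and 72 bp, and that of nhr-255 lay 20 bp from a tRNA gene of 84 bp. These were the only 3 nhr windows that held any part of a tRNA gene, and each had a summit. Over all genes, 102 of 145 windows with part of a tRNA gene had a summit (70.3%). Among windows with no tRNA gene, 9 of 266 nhr genes (3.38%) had a summit, against 1869 of 19828 protein-coding genes (9.43%). Nearness to tRNA genes was looked at after the values were seen, and its part in these summits was not tested.

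Sequence around the summits set nhr-141 apart. A stretch of 110 bp recurs within its 300 bases, and only 5 of 1694 promoter summits (0.30%) held a repeat as long, while the median of the longest repeat was 9 bp. nhr-255 followed with 23 bp, a repeat that overlaps itself within the run of alternating c and a in its stretch. Whether the repeat affects read placement was not tested. The 13 stretches had a median GC content of 45.3%, with a range of 34.0% to 53.7%, against 39.7% for all promoter summits. Over 201 bases the medians were closer, 44.8% for receptor summits and 42.8% for all promoter summits. Motifs were counted on both strands. AGGTCA, the core site bound by many nuclear receptors, occurred in 0 of 13 receptor stretches and in 7.56% of promoter summits. It was found in the 300 bases upstream of the 5′ end of 10.4% of nhr genes and 8.49% of all genes. GAGAGAGA occurred in 1 receptor stretch, that of nhr-1, and in 7.14% of promoter summits. TTTTTTTT occurred in 2 stretches (15.4%), against 21.9% of promoter summits, and TATAAA in 2 (15.4%), against 24.0%. With so few stretches these counts are descriptions only.

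Chromosome V held most of the family and 6 of its 12 genes with a summit (50.0%), but the share of its nhr genes with a summit was low. Chromosome V holds 167 nhr genes, 62.1% of the family, against 25% of all protein-coding genes. Of the 167, 6 had a series summit (3.59%), against 7.05% of all genes on V. Chromosome X holds 23 nhr genes, and 4 had a summit (17.4%), against 6.37% of all genes on X. In the replicates' own lists the count on X was lower, for nhr genes and for all genes. Replicate 1 had 1 of 23 nhr genes, against 78 of all 2731 genes on X. Replicate 2 had 2 of 23, against 129 of 2731. The 4 of the series list were nhr-255, nhr-1, nhr-48 and nhr-35, and 3 of them were below the median signal of promoter summits. Chromosome I had 1 of 23 and chromosome IV 1 of 33, against 14.5% and 10.4% of all genes there. Chromosomes II and III had 0 of 15 and 0 of 8, against 8.99% and 14.3%. Arms and centres, taken by dividing each chromosome into 3 parts of equal length, had similar shares, 9 of 197 nhr genes in arms (4.57%) and 3 of 72 in centres (4.17%), against 9.04% and 11.2% of all genes.

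**Figure D3:**
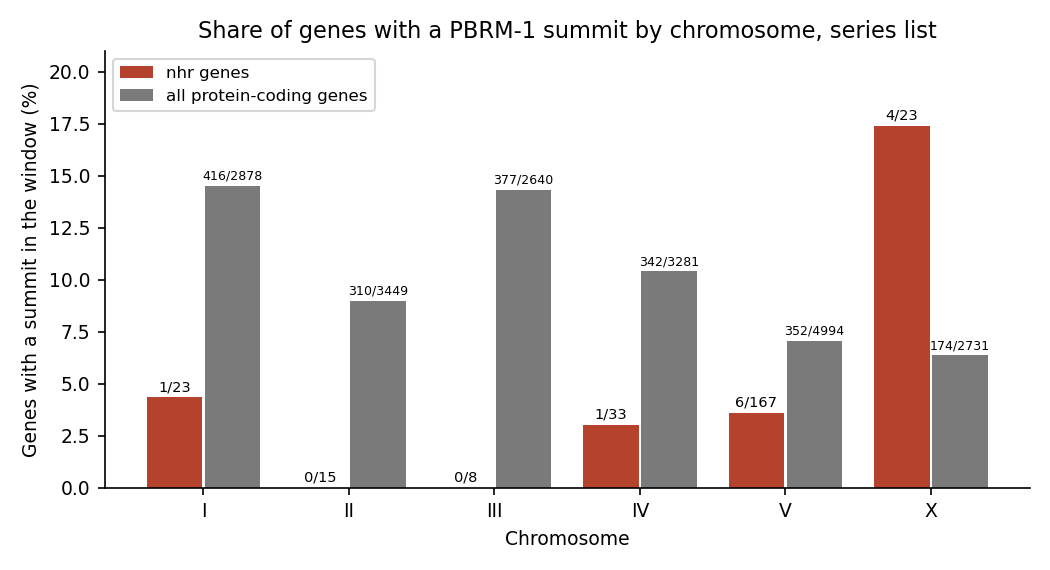
The bars give the percent of genes with a series summit in the promoter window on each chromosome, for nhr genes (red, left) and all protein-coding genes (grey, right), with the counts above the bars. In the series list chromosome X is the only one on which the nhr share, 4 of 23, is above that of all genes. In replicate 1's own list the count on X is 1 of 23, against 78 of all 2731 genes there. In that of replicate 2 it is 2 of 23, against 129 of 2731.

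Receptor genes directly beside another receptor gene in gene order had no thresholded summit. An nhr gene was counted as next to another when the adjacent protein-coding gene on either side was also an nhr gene, a split made after the values were seen. Of the 137 such genes, 107 of them on chromosome V, 0 had a summit in any of the 4 thresholded lists. All 12 receptors of the series list were among the 132 without an nhr neighbour, which is 9.09% of them, against 9.87% of all genes with or without such neighbours. The absence depends on this definition. nhr-68 begins 890 bp from nhr-101 and was counted as having no nhr neighbour because H12C20.7, which overlaps nhr-101, comes between them in order. By distance, 2 of 142 nhr genes within 5000 bp of another nhr gene had a summit (1.41%), nhr-49 and nhr-68, and 10 of 127 farther away (7.87%). Other families showed an unequal split too. Among other genes with a family symbol, 58 of 2087 next to a gene with the same prefix had a summit (2.78%), and 1274 of 8540 without such a neighbour (14.9%). The 9.09% of nhr genes without an nhr neighbour was below this 14.9%. In the ranked list of the series, 74 of the 137 adjacent receptors had a candidate (54.0%), the strongest at 58.5, and 89 of the 132 others (67.4%). Other genes with a family symbol had the same order in that list, so it was not particular to receptors. A candidate was listed for 47.4% of those next to a gene with the same prefix and for 73.8% of the rest. No cause of this split was tested.

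**Figure D4:**
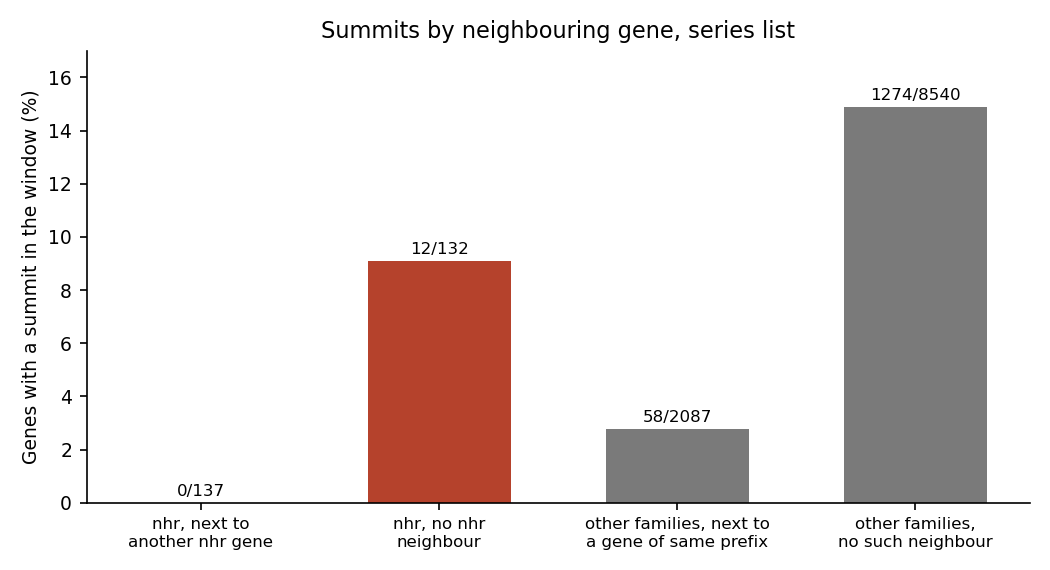
The bars give the percent of genes with a series summit in the promoter window for nhr genes next to another nhr gene, nhr genes with no nhr neighbour, and the same 2 classes of other genes with a family symbol, with counts above the bars. The first bar is at 0 of 137 genes and the second at 12 of 132; the class at 12 of 132 includes nhr-68, which lies 890 bp from nhr-101.

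Receptors with several annotated 5′ ends had a summit in a larger share of cases. Of 167 nhr genes with 1 annotated 5′ end, 4 had a summit (2.40%), and of 102 with 2 or more, 8 had a summit (7.84%). Over all genes the shares were 7.90% with 1 annotated 5′ end and 15.1% with 2 or more. Each further 5′ end can lengthen the window searched. With the outermost 5′ end alone, 7 of the 102 nhr genes with 2 or more had a summit (6.86%), against 12.4% of all such genes. With the outermost 5′ end of each gene alone, 11 nhr genes had a summit (4.09%), against 9.14% of all genes, so internal 5′ ends brought in 1 receptor, nhr-41. Windows that overlap another gene's window had a summit at 5 of 53 nhr genes (9.43%), against 16.5% of all such genes, and windows without overlap at 7 of 216 (3.24%), against 6.07%.

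With weak candidates counted too, most receptors had one. The ranked lists hold candidate regions whether or not they passed, but a gene with a candidate in 1 list can have none in another. For example, nhr-43 had a candidate of 28.8 in replicate 1 and none in either ranked list of the series. nhr-190 had 35.2 in the conservative ranked list and none in the ranked list of the series. Having no candidate thus means having none in the list named. In the ranked list of the series, 163 of 269 nhr genes (60.6%) had a candidate in the window, against 66% of all protein-coding genes, and the conservative ranked list had 163 as well (60.6%), against 65.9%. In replicate 1, 141 nhr genes (52.4%) had a candidate, against 52.9% of all genes, and in replicate 2, 116 (43.1%), against 49.4%. In proportion to the share of all genes, these shares were closer to it than those of the thresholded lists. In percentage points the gap was clearly narrower in replicate 1 only. Over both replicates, 89 nhr genes had a candidate in each, 52 in replicate 1 alone, 27 in replicate 2 alone and 101 in neither. The same split was not counted over all genes, so whether it is particular to receptors is unknown.

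The candidates of nhr genes were weaker than those of all genes, with the wider gap at the top. With genes without a candidate counted as 0, the median signal in the ranked list of the series was 17.7 for nhr genes and 21.9 for all genes. The upper quartile was 34.6 for nhr genes and 39.0 for all genes, and the ninth decile was 48.4 for nhr genes and 65.9 for all genes. Among genes with a candidate, the medians were 29.4 for nhr genes and 32.8 for all genes, against a median of 21.4 over the whole list.

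**Figure D5:**
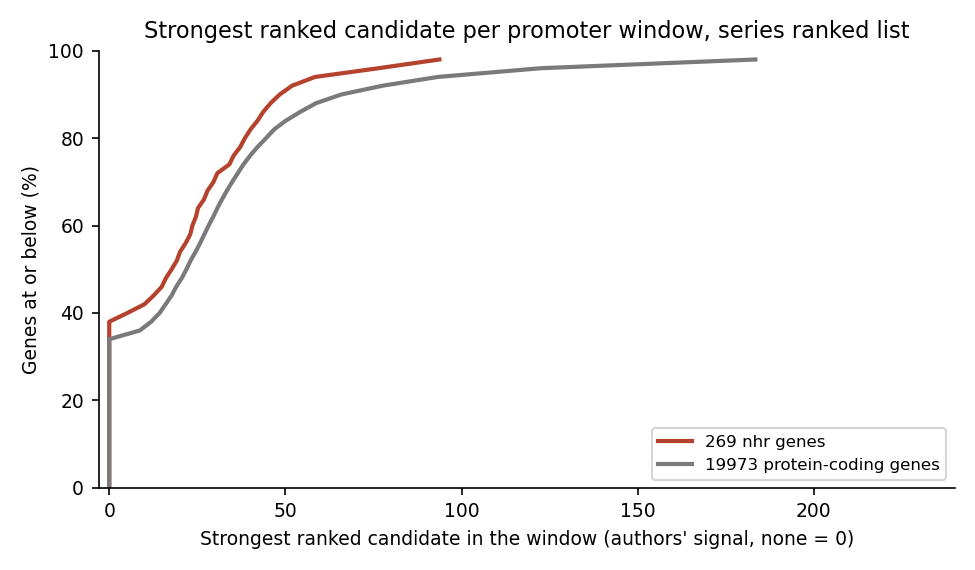
The curves give the percent of genes (vertical axis) whose strongest candidate in the promoter window is at or below a signal (horizontal axis, no candidate = 0), for the 269 nhr genes (red) and all 19973 protein-coding genes (grey), in the ranked list of the series. The red curve lies to the left of the grey one, with medians of 17.7 for nhr genes and 21.9 for all genes.

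The 10 strongest candidates among receptors with no thresholded summit ranged from 50.8 to 78.1. nhr-256 led with 78.1, with 25.9 in replicate 1 and 50.4 in replicate 2. Its signal was above those of nhr-48 and nhr-35, but its IDR score of 781 was below 830, the lowest score in the thresholded lists. nhr-21 had 69.2, with 40.0 in replicate 1 and 29.4 in replicate 2. The next were nhr-228, nhr-114, nhr-40, nhr-32, nhr-88, nhr-78, nhr-132 and nhr-66, and their scores ran from 73 to 768. nhr-114, which is known to protect the germline in a way that depends on diet, had 57.1, with 13.9 in replicate 1 and 46.3 in replicate 2 at this candidate. The order by signal was thus not the order by score.

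The conserved receptors, those with clear relatives in other animals, had 2 summits among 11 genes, those of nhr-41 and nhr-48 described above, against 9.87% of all genes. The count was 1 in the conservative list and 0 in each replicate's own list. This list and those that follow were chosen with earlier results of these data known and are too short for more than a description. The moulting regulator nhr-23, a relative of ROR, had a candidate of 37.8, and nhr-25, a relative of FTZ-F1 with roles in epidermis and moulting, 34.6. nhr-85, of the E75 and Rev-erb group, had 40.1, and nhr-91, of the GCNF group, 42.1. The NR4A relative nhr-6 had 23.8 and nhr-8, a regulator of cholesterol balance and detoxification, 25.2. The tailless relative nhr-67 had no candidate in the series ranked list and 13.7 in replicate 1. All of these were below 72.7, the weakest leading signal of the 12 receptors. nhr-111 had 40.0 and nhr-239 had 36.7. The median of the 11 was 37.8, against 16.2 for the 258 other nhr genes with none counted as 0. Window length was not matched in this comparison, and a longer window can hold more candidates. Among the 11 it ran from 1201 bp, as at nhr-67, to 5363 bp at nhr-41, against a median of 1201 bp over all nhr genes.

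Of the 6 receptors of fat metabolism and fasting, 1 had a summit, nhr-49, against 9.87% of all genes. The partners that act with NHR-49 in fat metabolism were lower, nhr-66 at 50.8, nhr-80 at 40.5 and nhr-13 at 23.3. nhr-76, which acts in serotonin-driven fat loss, had 35.7, and nhr-62, needed for long life under dietary restriction, 30.4. Of the 7 genes for vitamin B12, propionate and detoxification, 2 had a summit, nhr-68 and nhr-86, against the same 9.87%. The rest of this list had weak candidates or none. nhr-10, the partner of nhr-68 in the propionate shunt, had a candidate of 29.1, with none in replicate 1 and 11.6 in replicate 2. nhr-112 had no candidate in the series list and 15.7 in replicate 1. nhr-176, which acts in the response to the drug thiabendazole, had none in the series list, in replicate 1 or in replicate 2, and 22.8 in the conservative ranked list.

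Receptors with other names and the enzymes that make a receptor ligand had no thresholded summit. The 5 receptors were daf-12, the receptor for dafachronic acids, at 35.6, the neuronal receptors fax-1 at 34.5, odr-7 at 36.4 and unc-55 at 20.1, and the sex determination gene sex-1 with no candidate in the series ranked list. Of the 4 genes of dafachronic acid synthesis, dhs-16 had 48 and hsd-1 had 19.7, and daf-9 and daf-36 had no candidate in that list. In the conservative ranked list, sex-1 had 25.6 and daf-9 had 29.8, and hsd-1 had none. A candidate of 22.7 was listed for sex-1 in replicate 2, and daf-36 had none in any ranked list.

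Of 4 genes for cofactors that work with receptors, 3 had a summit in the series list, against 9.87% of all genes, with 2 in the conservative list, 1 in replicate 1 and 2 in replicate 2. cbp-1, the CBP and p300 histone acetyltransferase, had a peak at chrIII:9765518-9765723 with a signal of 397.2, above that of nhr-47, with 170.6 in replicate 1 and 230.5 in replicate 2, both past the threshold. din-1, a corepressor of DAF-12, had 150.2, with 47.1 in replicate 1 and 91.3 in replicate 2. mdt-15, the Mediator subunit that binds NHR-49, had 72.5, with 37.2 in replicate 1 and 15.2 in replicate 2, at a summit it shares with R12B2.13 and in the series list alone. cdk-8, the Mediator kinase, had a candidate of 53.8 and none in replicate 1. The members of this list were chosen with earlier results of these data known.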

How the data were processed

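ChIP-seq of PBRM-1 was done on whole young adults, and the labels number the samples as 2 biological replicates of 1 group. The 8 peak lists are on ce11 and have no headers. The aligner, peak caller and read filters were not given in the sources used here. Each list was deposited with a signal per peak whose scale is not stated. The authors also deposited a −log10 q value, a score that reached 1000, a −log10 IDR (irreproducible discovery rate) and a summit offset. The lowest score in the thresholded lists was 830. Read depth is unknown from peak lists. The number of unused sample columns was 0.

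Computed here, with Python 3.11.15, numpy 2.4.6 and pandas 2.3.3, was the position of each summit (start plus offset) relative to all annotated transcript 5′ ends of 19973 protein-coding genes. Assignment was checked on planted summits. No statistical test was run, since there is 1 group and no contrast; shares of all genes stand as background. Named genes were every nhr gene with a thresholded summit in any list, the genes sharing those summits, the 10 further nhr genes with the strongest candidates and all genes of the lists of receptor groups and partners. The members and lists were chosen with earlier results of these data known. The tRNA, neighbour (by order or by distance), 5′-end, repeat and gene-body descriptions and the 300-base length of the sequences, which replaced 201 bases, were chosen after the values were seen.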

Additional observations from a re-analysis of the deposited data

How the results depend on the processing

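The count of 12 nhr genes with a summit was 12 in the conservative list, with q at most 0.05, with peak midpoints and with any overlap of peak and window. It was 16 with 2000 bp upstream, 10 with the nearest 5′ end alone, and 9 without summits within 500 bp of a tRNA gene, an alternative chosen after seeing the data. In single replicates it ranged from 4 to 9. It was 4 with a peak in both replicates' own lists, 6 at or above the median signal of the list and 7 in a window of 500 bp upstream to 100 bp downstream. The own count of 8 ranged from 1 to 5 in single replicates and was 1 in both, 2 at or above the median signal, 5 in the narrow window and 5 without the tRNA summits. The count of 4 receptors with shared summits alone was 2 in the narrow window and 3 to 4 in single replicates. The 1971 protein-coding genes became 925 to 1524 in single replicates, 818 in both and 1201 at or above the median signal. They were 1795 in the conservative list, 1701 with q at most 0.05 and 2101 with any overlap. With 2000 bp upstream they were 2570, and in the narrow window 1511. The nearest 5′ end alone gave 1482, and leaving out the tRNA summits gave 1877. The median ranked candidate of 29.4 was 17.4 to 21.2 in the replicates' own ranked lists, whose signals are on scales of their own, and 29.1 in the other ranked list of the series. Over 15 named genes and 12 settings, 41 of 180 calls changed. nhr-47 kept its summit in all 12 settings. The cause of these changes was not tested, beyond that each narrower setting admits fewer peaks. No paired analysis was possible because the samples form 1 group. With replicate 1 alone the count of 12 is 4, so weaker receptors rest on replicate 2 or on both samples together. Read depth is unknown, so a missing summit cannot be told from one below detection.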

Other observations

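Some receptor genes had series summits inside the gene but outside the promoter window. There were 8 such summits in 8 nhr genes, which is 2.97% of the family, against 763 of all protein-coding genes (3.82%), a description chosen after the values were seen. nhr-17 had the strongest, with a signal of 187.3 in an intron at chrX:12665197-12665327, inside a tRNA gene. The summit of nhr-150 (94.5) was also inside a tRNA gene in an intron. nhr-19 had an intronic summit at 117.6 and nhr-3 at 116.8, and those of nhr-23 (81.0) and nhr-28 (46.8) were intronic too. The summits of nhr-119 (78.0) and nhr-274 (73.0) lay in exons. nhr-3 thus had an intronic peak stronger than the one in its promoter window, which had 70.5 in the ranked list of the series.

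With 2000 bp upstream, 4 more nhr genes had a series summit. nhr-247 had the strongest at 193.0, with its summit 1877 bp upstream. nhr-249 had 105.8 at 1782 bp, nhr-21 had 91.9 at 1593 bp, and nhr-23 had 81.0 at 1309 bp upstream of an internal 5′ end, the same intronic peak as above. None of these summits lay in the 1000 bp window of another protein-coding gene.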
